A study of Bos taurus with 106 samples.

Results

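Liver transcripts of ad libitum fed Holstein cows were compared between day 28 and day 14 after calving. The comparison rests on the 16 arrays that the labels place in these groups, which hold 8 of the 53 cow-days of the series: cows 6886, 7050, 7161 and 7187, each sampled on both days. The study set 2 planes of nutrition in the dry period of 65 days against each other. All 8 cows of the series received a diet of moderate energy density (1.60 Mcal/kg) in that period. The 4 ad libitum cows ate freely and took in about 120% of the NRC requirement, and the 4 restricted cows were held to about 80%. The labels describe feeding in the dry period only, so day 14 and day 28 differ in time after calving and not in a labelled diet. The sources used here state neither age nor parity.

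In a dairy cow the liver bears much of the metabolic load of early lactation. It makes glucose from propionate, lactate and amino acids for the udder's lactose synthesis, and it takes up the fatty acids that adipose tissue releases while feed intake lags behind milk output. It also secretes most plasma proteins, and around calving many cows pass through an acute phase response in which secretion shifts towards defence proteins. In the following weeks intake rises and the release of body fat slows.

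Liver cDNA was hybridised together with cDNA of a reference mixed from tissues other than liver, once with liver in Cy3 and once with liver in Cy5. Every value below is the log2 ratio of liver over that reference, centred on the array median, averaged over both spots of an element and over both dye orientations. A positive ratio means more signal in liver than in the reference, and a change is the day 28 value minus the day 14 value. Of 8208 elements on the array, 8061 were tested, and 5530 of these carried a single gene symbol. In bulk tissue, fewer cells of a type and less RNA per cell cannot be told apart. All 3 hepatocyte markers measured lay above the reference: the mean ratio on day 28 was 5.20 for TF (transferrin), 1.07 for APOA1 (apolipoprotein A-I) and 6.06 for SLC10A1 (the sodium-dependent bile acid uptake transporter).

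The arrays of both days were first compared in a technical measure. After removal of the mean dye offset of each element, both orientations of a liver sample had a mean correlation over elements of 0.752 ± 0.0769 (SD over 4 cows) at day 14 and 0.863 ± 0.00691 (SD over 4 cows) at day 28. The correlation was higher on day 28 in 4 of 4 cows, by 0.111 on average (two-sided exact sign-flip test, adjusted p = 0.312 over 5 measures, with the raw p at the smallest value that 4 cows allow). The mean dye offset per element on day 14 correlated at 0.948 with that on day -14 and at 0.949 with that on day 1. With day 28 the value was 0.853, and the offset of day 28 correlated at 0.937 with that of day -30 (each over 8208 elements, which are not independent replicates). Day 14 thus shared its dye offset more closely with days -14 and 1 than with day 28. No source used here says whether arrays of certain days were made together, and a difference of array sets and the difference of days cannot be told apart in any result below.

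Between day 14 and day 28, 438 of 8061 elements (5.43%) changed at an adjusted p under 0.05 in limma. Of these, 217 (2.69%) rose and 221 (2.74%) fell. The median size was 0.85 for risers and -0.76 for fallers, and 80 risers and 52 fallers changed at least 2-fold. Elements with a single symbol named 143 genes that rose and 167 that fell. The change was upward in 4 of 4 cows for 189 of the 214 risers with a value for every cow on both days, and downward in 4 of 4 cows for 217 of 221 fallers. The groups did not overlap for 164 risers and 198 fallers. Risers and fallers were picked by their change in these same cow-days, so both kinds of count follow in part from that choice. Over all 7887 elements with 8 values, 5.58% had every day 28 value above every day 14 value and 6.88% had every day 28 value below. A paired fit of days 14 and 28 alone, with each cow as a fixed replicate block, called 11 elements, 2 higher and 9 lower, all among the 438. Directions are relative to the array median: without centring the median of all elements moved from 0.02 to -0.57, and the split became 13 risers against 1553 fallers.

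**Figure D1:**
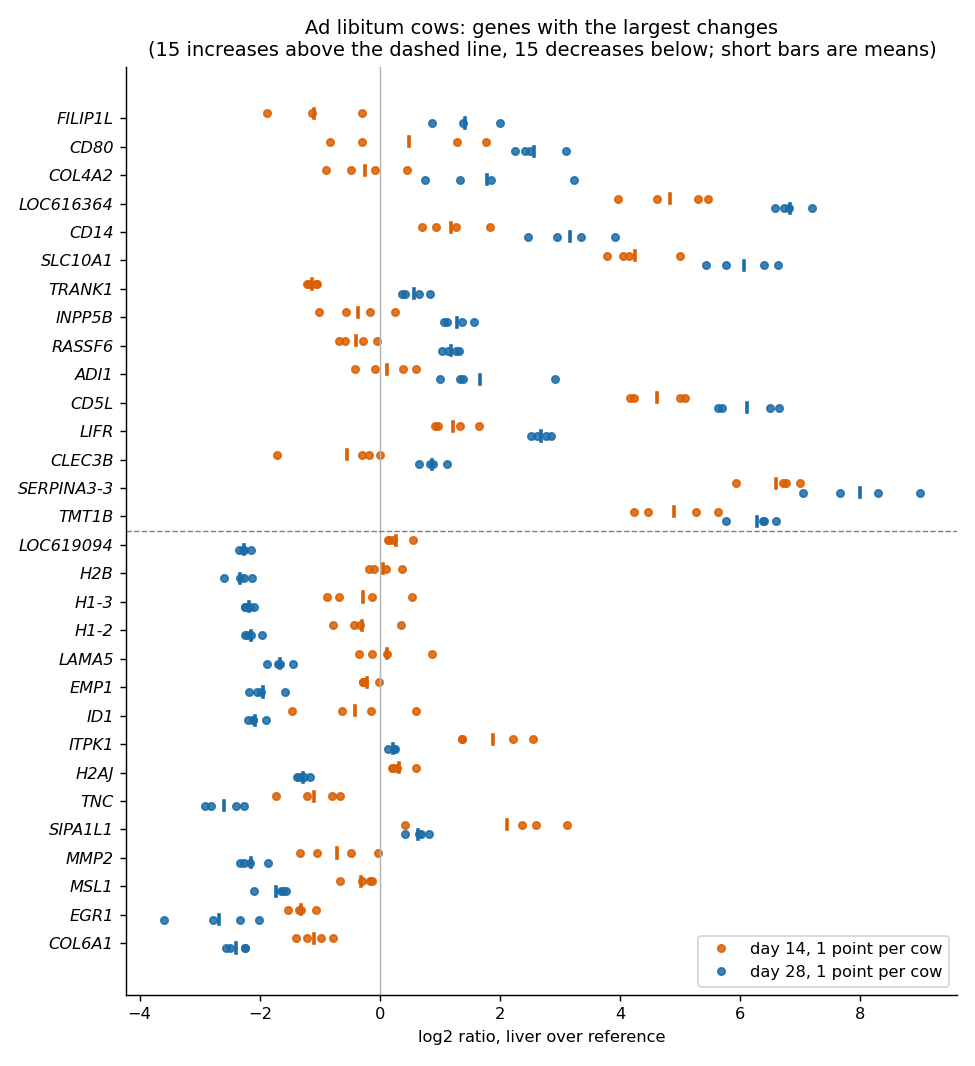
Log2 ratio of liver over reference (horizontal axis) in each ad libitum cow on day 14 (orange) and day 28 (blue) for the 15 genes with the largest increase and the 15 with the largest decrease. Points are cows, short vertical bars are means, and in 29 of 30 genes the points of both days do not overlap; SIPA1L1 is the exception. The genes were picked by their change in these same cows, which favours separate points.

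Of the 3 hepatocyte markers, SLC10A1 and TF rose. SLC10A1, which brings bile acids from portal blood into hepatocytes, stood at 4.05, 3.78, 4.15 and 4.99 in cows 6886, 7050, 7161 and 7187 on day 14 and at 6.40, 6.63, 5.43 and 5.76 on day 28. Every day 28 value lay above every day 14 value. The change was 1.81 ± 0.28 (3.52-fold, adjusted p = 4.92e-05), with 4 cows on each day. Each ± on a change, here and below, is the SE of the limma fit. Its residual spread is pooled over 53 cow-days in 14 groups. The SE is thus not the spread of the 4 paired changes, which were 2.35, 2.86, 1.28 and 0.77 for SLC10A1. The same order of cows is kept below.

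Of 5 measured acute phase and plasma protein genes, 3 rose, none fell, and the median change was 0.73 against 0.02 for all elements. Counts of list genes, here and below, are to be read against 2.69% of all elements higher and 2.74% lower. SERPINA3-3, a member of the serpin family of protease inhibitors, read 5.94, 6.71, 6.99 and 6.75 on day 14 and 8.29, 8.99, 7.04 and 7.67 on day 28. It rose by 1.40 ± 0.33 (adjusted p = 0.00611), with a difference of only 0.04 in cow 7161. Transferrin (TF), the iron carrier of plasma, rose from 3.79, 4.49, 3.93 and 4.14 to 5.29, 5.61, 4.64 and 5.27, a change of 1.11 ± 0.22 (adjusted p = 0.00137). Its groups did not overlap. RBP4, the retinol carrier, changed by 0.73 ± 0.23 (adjusted p = 0.0465) with overlapping groups, since cow 7161 went from 5.88 to 5.84. None of the 3 risers passed when each cow-day was divided by the slope of its profile on the mean profile, nor after quantile normalization of the cow-days. The change of TF was then 0.47 and 0.67, that of SERPINA3-3 0.38 and 0.45, and that of RBP4 -0.11 and -0.01. Levels of this list were high, and all 177 elements above 2 in restricted cows had a median change of 0.45. CP (ceruloplasmin) and RARRES2 (chemerin) changed by -0.10 and 0.56 and did not pass (adjusted p = 0.903 and 0.283).

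Among 11 complement genes, 2 rose and none fell, with a median change of 0.14 and cow medians from -0.31 to 0.46. SERPING1, the inhibitor of the classical pathway proteases, read 2.36, 2.14, 2.83 and 3.05 and then 3.60, 4.10, 3.44 and 3.49. C1R, one of those proteases, read 4.45, 4.74, 5.41 and 5.53 and then 5.94, 6.20, 5.74 and 5.51. The rise was 1.07 ± 0.30 for SERPING1 (adjusted p = 0.0258), whose groups were separate. For C1R it was 0.81 ± 0.23 (adjusted p = 0.0298), with nearly equal values in cow 7187. SELENOP, which carries selenium in plasma, rose by 0.78 ± 0.24 (adjusted p = 0.0481). All 4 cows were higher on day 28, although the groups overlapped. Divided by slope, none of these 3 genes passed, at 0.66 for SERPING1, 0.07 for C1R and 0.17 for SELENOP. SERPING1 and C1R were also lost on leaving out cow 6886, 7050 or 7161.

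Of 13 macrophage and Kupffer cell markers, 2 rose and none fell. CD14, a co-receptor for bacterial lipopolysaccharide on macrophages that hepatocytes also secrete, was represented by 2 elements, and both rose. The first read 0.93, 0.69, 1.26 and 1.83 on day 14 and 3.36, 3.91, 2.46 and 2.95 on day 28, a change of 1.99 ± 0.31 (adjusted p = 4.56e-05). The second changed by 1.17 ± 0.28 (adjusted p = 0.00679), and neither element showed overlap between the days. CD5L, a protein secreted by tissue macrophages, read 4.23, 4.17, 5.07 and 5.0 and then 5.70, 6.50, 6.65 and 5.63, a change of 1.50 ± 0.34 (adjusted p = 0.00524). CD5L did not pass when divided by slope (0.77). The median of the list was 0.10, and CD163 and VSIG4, scavenger and complement receptors of Kupffer cells, changed by -0.23 and 0.19 (adjusted p = 0.723 and 0.684).

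CD80, a costimulatory ligand of antigen-presenting cells, varied widely on day 14, at 1.76, -0.30, -0.83 and 1.28, and less on day 28, at 2.25, 3.10, 2.50 and 2.41. The change was 2.09 ± 0.45 (adjusted p = 0.00332), and it ranged from 0.48 in cow 6886 to 3.40 in cow 7050. LIFR, the receptor subunit for leukaemia inhibitory factor that signals through gp130, read 1.34, 1.64, 0.96 and 0.91 and then 2.51, 2.84, 2.77 and 2.61. It rose by 1.47 ± 0.29 (adjusted p = 0.00113) with wide separation of the days. The 6 T and NK cell markers measured had a median change of 0.069, and none passed.

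Few genes of the metabolic lists passed. MLXIPL encodes ChREBP, the transcription factor through which carbohydrate raises lipogenic and glycolytic genes. It read 1.51, 1.17, 1.58 and 1.60 on day 14 and 2.60, 2.38, 2.79 and 2.21 on day 28, without overlap, and rose by 1.03 ± 0.21 (2.04-fold, adjusted p = 0.00157). It was the only one of 9 nuclear receptors and liver transcription factors that passed.

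Of 13 genes of fatty acid oxidation, ACADS alone rose, although 12 of 13 changes were above 0 (median 0.13; over all elements the median was 0.02). The list's median by cow ran from -0.29 to 0.64. Its mean level on day 14 lay between 1.74 and 2.44 over cows. In the level classes described below, 71% of all elements from 1 to 2 and 80.8% of those above 2 had a change above 0. ACADS, the short-chain acyl-CoA dehydrogenase, read 2.02, 2.57, 2.96 and 3.33 and then 3.60, 4.38, 3.61 and 3.60, a change of 1.08 ± 0.29 (adjusted p = 0.0188). Cow 7050 stood above the other cows on day 28, and ACADS did not pass without cow 6886 or 7050 or when divided by slope (0.66). CPT1A, which commits long-chain fatty acids to mitochondrial oxidation, had 2 elements with changes of 0.04 ± 0.28 and 0.08 ± 0.23 (adjusted p = 0.946 and 0.872). In both elements 2 cows were higher and 2 lower on day 28. ACSL1, which activates long-chain fatty acids, changed by 0.48 ± 0.34 (adjusted p = 0.491), and none of the 10 genes of fatty acid uptake, activation and binding passed.

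None of the 11 genes of gluconeogenesis and pyruvate use passed. PC, the carboxylase that turns pyruvate into oxaloacetate, read 0.27, 0.32, 0.23 and 0.00 on day 14 and 0.15, 0.08, -0.19 and -0.53 on day 28. It was lower in 4 of 4 cows, but the change of -0.33 ± 0.19 did not pass (adjusted p = 0.373). SREBF1, the lipogenic transcription factor, changed by 0.70 ± 0.57 (adjusted p = 0.554), and its day 14 values spread from -1.13 to 1.00. PCK1, IGF1 and GHR had no tested element with their symbol alone.

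Some further enzymes passed. ASS1, the urea cycle enzyme that joins citrulline and aspartate, rose by 0.96 ± 0.23 (adjusted p = 0.00627) as the only one of 8 genes of the urea cycle and amino acid catabolism, and cow 7161 went the other way, from 1.25 to 1.11. ACAT2, the cytosolic acetoacetyl-CoA thiolase, rose by 0.86 ± 0.22 (adjusted p = 0.0105), alone among 8 sterol genes. ATP5F1A, the alpha subunit of ATP synthase, rose by 1.14 ± 0.29 (adjusted p = 0.0109), alone among 48 genes of oxidative phosphorylation, whose median was -0.071. In fatty acid and triacylglycerol synthesis, 2 of 13 genes fell and none rose. ELOVL1, an elongase of very long chains, fell by 0.48 ± 0.11 (adjusted p = 0.00655). AGPAT1, an acyltransferase of glycerolipid synthesis, fell by 0.67 ± 0.18 (adjusted p = 0.0165). In both genes the days did not overlap.

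Some glycolytic isoenzymes fell. In the list of glycolysis and the pentose phosphate pathway, 4 of 17 genes fell, none rose, and the median change was -0.24. PKM, the pyruvate kinase gene of muscle and most tissues other than hepatocytes, read -1.33, -1.17, -0.92 and -1.44 on day 14 and -2.40, -2.36, -2.07 and -2.36 on day 28, a fall of 1.08 ± 0.21 (2.11-fold, adjusted p = 0.00105). PFKP, the platelet type of phosphofructokinase, read -0.51, -0.40, 0.00 and -0.55 and then -1.04, -1.19, -1.25 and -1.13, a fall of 0.79 ± 0.14 (adjusted p = 0.000307). The days did not overlap in either gene.

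The aldolases ALDOA and ALDOC, the forms of muscle and brain, fell by 1.21 ± 0.36 and 1.01 ± 0.30 (adjusted p = 0.0406 and 0.0399). ALDOA fell in its other element as well, by 1.23 ± 0.30 (adjusted p = 0.00925). Cow 7161 had the highest day 14 value of both, 0.98 for ALDOA and 1.81 for ALDOC. The calls of ALDOC and of the first ALDOA element were lost whichever ad libitum cow was left out. PFKL, the liver type of phosphofructokinase, changed by 0.46 (adjusted p = 0.56) and did not pass.

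Histone genes were among those with the largest falls. H2B, a core histone, read -0.10, -0.18, 0.10 and 0.36 on day 14 and -2.32, -2.12, -2.60 and -2.26 on day 28. The fall was 2.37 ± 0.23, which is 5.18-fold (adjusted p = 1.31e-09), and no day 28 value came near a day 14 value. The linker histones H1-3 and H1-2 fell by 1.90 ± 0.28 and 1.85 ± 0.28 (adjusted p = 1.74e-05 and 2.65e-05). H1-3 read -0.68, -0.88, 0.54 and -0.13 and then -2.09, -2.16, -2.25 and -2.24, so that the spread over cows was far wider on day 14. H2AJ, an H2A variant, read 0.28, 0.21, 0.60 and 0.20 and then -1.38, -1.34, -1.16 and -1.27, a fall of 1.61 ± 0.23 (adjusted p = 9.76e-06).

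These 4 were the histones that passed among 9 measured, and none rose. The others ranged from -0.35 for H2AZ1 to 0.50 for H2BC21, both variants that did not pass. Many histone genes of the same family are near-identical copies, and a cDNA element may take up signal from several of its family. Of 18 cell cycle and DNA replication genes, 2 fell and none rose. CDC20, an activator of the anaphase-promoting complex, read -1.20, -0.85, -0.63 and -0.93 and then -1.95, -2.39, -2.32 and -1.73, a fall of 1.19 ± 0.23 (adjusted p = 0.00103). CCND3, a G1 cyclin, fell by 0.79 ± 0.20 (adjusted p = 0.0139).

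Of 34 extracellular matrix genes measured, 6 fell and COL4A2 rose, 7 of 34 changes lay above 0, and the median was -0.28, with cow medians from -0.37 to -0.26. The list's mean level lay between -0.67 and -0.14 over cows on day 14 and between -0.89 and -0.73 on day 28. In the level classes below, 3.22% of all elements from -1 to 0, 9.35% from -2 to -1 and 23.4% at or below -2 fell. Changes above 0 made up 46.6%, 31.3% and 17.5% of these classes. TNC (tenascin C), a matrix protein of wound repair, read -0.66, -1.72, -1.21 and -0.80 on day 14 and -2.40, -2.91, -2.82 and -2.26 on day 28, a fall of 1.50 ± 0.34 (adjusted p = 0.00524). COL6A1, a chain of microfibrillar collagen, read -1.22, -1.39, -0.79 and -0.99 and then -2.25, -2.56, -2.50 and -2.25, a fall of 1.29 ± 0.27 (adjusted p = 0.00188). MMP2, a gelatinase, read -0.03, -1.32, -0.49 and -1.04 and then -1.86, -2.16, -2.27 and -2.33. It fell by 1.43 ± 0.33 (adjusted p = 0.00611), and none of these 3 genes overlapped between the days.

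LAMA5, a laminin chain of basement membranes, fell in 3 of its 4 elements, most of all by 1.79 ± 0.25 (adjusted p = 5.94e-06). The remaining element, which stood for LAMA5 in the list, changed by -0.43 (adjusted p = 0.231). FBLN1 (fibulin 1) fell by 1.04 ± 0.23, TIMP1, an inhibitor of metalloproteinases, by 1.23 ± 0.29, and the laminin chain LAMC1 by 0.78 ± 0.21 in 1 of its 2 elements (adjusted p = 0.00311, 0.0075 and 0.0164). COL4A2, a basement membrane collagen, read -0.89, -0.08, -0.49 and 0.45 and then 1.34, 3.23, 1.84 and 0.75. It rose by 2.04 ± 0.53 (adjusted p = 0.0164), but by only 0.29 in cow 7187, and its partner chain COL4A1 changed by -0.53 (adjusted p = 0.181).

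Of 7 stellate cell and fibroblast markers, 2 fell and 1 rose, with a median of -0.55. TAGLN, an actin-binding protein of contractile cells, fell by 0.90 ± 0.20 (adjusted p = 0.00458), and THY1, a surface protein of fibroblasts, by 0.60 ± 0.12 (adjusted p = 0.00118). DES (desmin), a filament protein of muscle and stellate cells, rose by 0.56 ± 0.14 (adjusted p = 0.0125) and had a change of -0.03 without centring. Its other element changed by -0.32 (adjusted p = 0.315). The list's mean level lay between -2.20 and -0.86 over cows on day 14 and between -2.47 and -2.04 on day 28. The part of stellate cells or fibroblasts in the matrix result was not tested. The 7 endothelial markers had a median of 0.52 with 6 of 7 above 0, and none passed (TEK, an angiopoietin receptor, had the smallest adjusted p, 0.0731, with a change of 0.83). Their mean level on day 14 lay between 1.05 and 1.63 over cows. Of all elements in the level class from 1 to 2, 71% had a change above 0, with a median of 0.22.

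Some immediate-early and stress-responsive transcription regulators fell. Of 31 inflammatory and stress regulators, 5 fell and LIFR rose. EGR1, a zinc finger factor induced within minutes of stimulation, read -1.31, -1.35, -1.07 and -1.53 on day 14 and -2.33, -2.01, -3.59 and -2.79 on day 28, a fall of 1.37 ± 0.36 (adjusted p = 0.0156). FOSL2, a subunit of AP-1, read 0.07, 0.02, 0.65 and -0.28 and then -0.66, -0.44, -0.83 and -0.97, a fall of 0.84 ± 0.20 (adjusted p = 0.00674). KLF4, a Krüppel-like factor, fell by 0.80 ± 0.18, RELA, the p65 subunit of NF-κB, by 0.65 ± 0.15, and FOSB, another AP-1 subunit, by 0.53 ± 0.15 (adjusted p = 0.0044, 0.00693 and 0.0298). All 5 fell in 4 of 4 cows by the elements given. RELA passed in 1 of 2 elements, and its other element changed by -0.38. FOSL2 passed in 1 of 3 elements, whose changes ran from -0.84 to -0.24. The list was not uniform: FOS changed by -0.39, JUN by 0.13 and ATF3 by 0.24 (adjusted p = 0.28, 0.881 and 0.558). ID1, an inhibitor of basic helix-loop-helix factors, lay outside the list and read -0.63, -1.46, 0.60 and -0.15 and then -2.11, -1.89, -2.20 and -2.12, a fall of 1.67 ± 0.30 (adjusted p = 0.000372).

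Further large falls belonged to no list. LOC619094, a locus that RefSeq names by number only, read 0.21, 0.15, 0.55 and 0.14 and then -2.35, -2.28, -2.15 and -2.27, a fall of 2.52 ± 0.29 (5.75-fold, adjusted p = 6e-08). EMP1, an epithelial membrane protein, read -0.28, -0.27, -0.28 and -0.02 and then -2.17, -2.04, -1.59 and -1.98, a fall of 1.73 ± 0.29 (adjusted p = 0.000162). Both genes had day 14 values close together and far from every day 28 value. ITPK1, an inositol phosphate kinase, read 1.37, 1.37, 2.55 and 2.22 and then 0.24, 0.26, 0.14 and 0.23, a fall of 1.66 ± 0.28 (adjusted p = 0.000182). MSL1, a subunit of a histone acetylating complex, fell by 1.42 ± 0.20 (adjusted p = 7.36e-06) in 1 element and changed by 0.02 in the other (adjusted p = 0.968). SIPA1L1, a regulator of Rap signalling, fell by 1.48 ± 0.36 (adjusted p = 0.00835), but cow 7187 read 0.41 and 0.42, and only 3 of 4 cows were lower.

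Of 46 cytosolic ribosomal protein genes, 4 had a change above 0 and the median was -0.34. Their mean level lay between -0.62 and -0.31 over cows on day 14. In the level classes described below, 46.6% of all elements from -1 to 0 had a change above 0. Only 2 of the 46 passed by the element counted. These were RPL8 (-0.62 ± 0.16, adjusted p = 0.0168) and RPL28 (-0.62 ± 0.19, adjusted p = 0.0455), both parts of the large subunit. Cow 7161 had the highest day 14 value of each, -0.01 and 0.32. In redox defence 1 of 24 genes fell and 1 rose: PRDX2, a peroxidase of the cytosol, fell by 0.65 ± 0.16 (adjusted p = 0.00795), and SELENOP was the riser given above. Among 36 splicing genes SF3B4 alone fell, by 0.55 ± 0.17 (adjusted p = 0.0389).

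Of 73 proteasome and ubiquitin genes, 3 rose and 1 fell, which is 5.48% against 5.43% of all elements. The risers were the conjugating enzymes UBE2S (1.31 ± 0.40, adjusted p = 0.0408) and UBE2T (0.47 ± 0.12, adjusted p = 0.00887) and the deubiquitinase USP9X (0.82 ± 0.21, adjusted p = 0.0125). USP9X passed in 1 of 3 elements, whose changes ran from 0.16 to 0.82. UBE2T had a change of -0.12 without centring. UBE2S was uneven, at -1.17, -0.41, 0.24 and -0.28 and then 2.29, 0.91, -0.19 and 0.59, with cow 7161 lower on day 28. UCHL1, a ubiquitin hydrolase best known from neurons, fell by 0.69 ± 0.20 (adjusted p = 0.0383). It did not pass when divided by slope (-0.21) or after quantile normalization (-0.36).

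**Figure D2:**
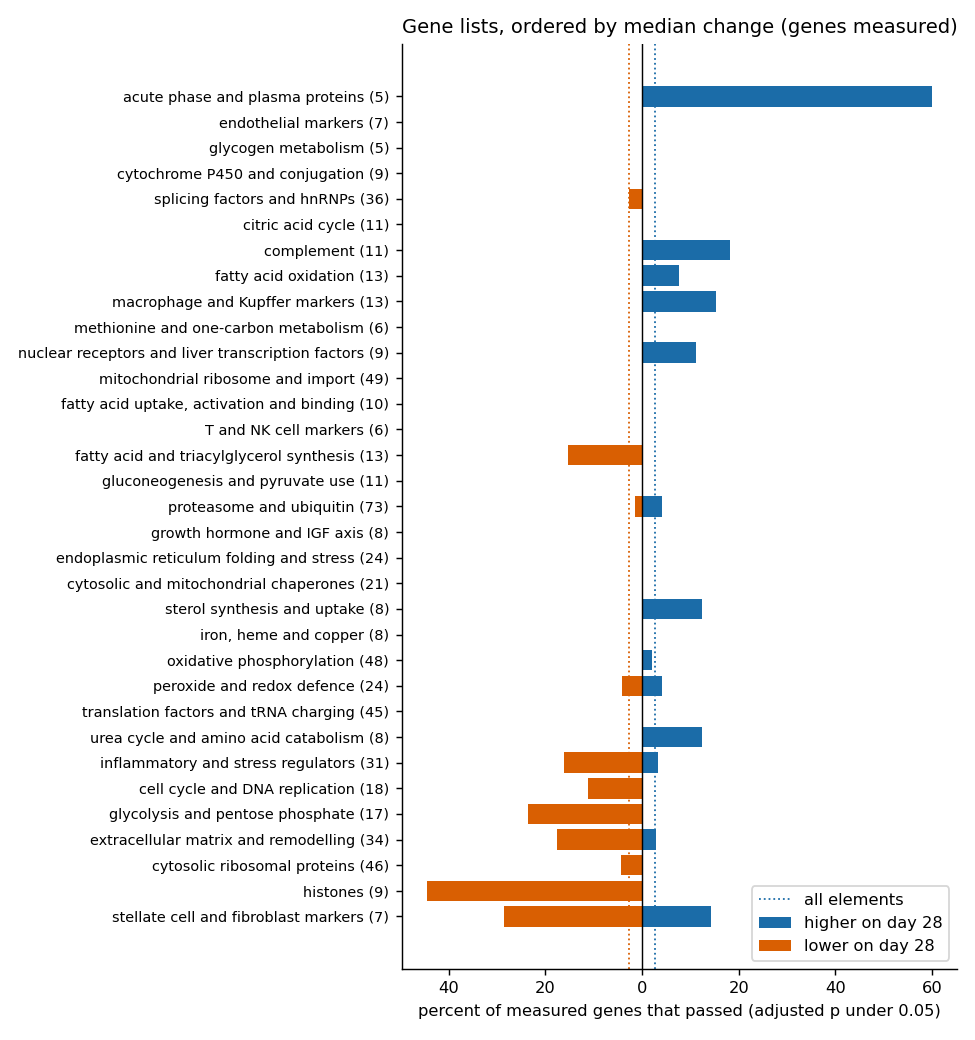
Percent of the measured genes of each list that passed (horizontal axis; adjusted p under 0.05), higher on day 28 to the right and lower to the left, with the number of genes measured in parentheses and lists ordered by their median change. Dotted lines mark all elements, 2.69% higher and 2.74% lower; the bars of lists with few genes rest on 1 to 4 genes.

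Several lists had no gene that passed: glycogen metabolism (5 genes, median 0.37), the citric acid cycle (11, 0.16), one-carbon metabolism (6, 0.094), mitochondrial ribosome and import (49, 0.078), cytochrome P450 and conjugation (9, 0.20), folding in the endoplasmic reticulum (24, -0.033), other chaperones (21, -0.046), translation factors (45, -0.095), the growth hormone and IGF axis (8, -0.024) and iron, heme and copper (8, -0.064). Each gene was counted by a single element. By other elements, HYOU1, a chaperone of that reticulum, fell by 1.07 ± 0.26, and the translation factors EEF2 and EIF4A1 fell by 0.85 ± 0.21 and 0.68 ± 0.18 (adjusted p = 0.0075, 0.0123 and 0.017). FMO5 of the cytochrome P450 list rose by 0.912 in another element, which passed. IGFBP4 of the growth hormone and IGF axis rose and passed in 1 of 3 elements, whose changes ran from -0.025 to 0.588. In other lists, RPL35, CDK4 and CUL4A passed lower by an element not counted, at -0.62, -0.50 and -0.47. UBE2B and ABCA1 passed higher in that way, at 0.97 and 0.95. Other elements of CUL4A ran up to 0.51 and those of ABCA1 down to -0.28. HK1, the hexokinase of most tissues, fell in 1 element by 0.93 ± 0.19 (adjusted p = 0.00201) and changed by -0.04 in the other. S100A12, a calcium-binding protein of granulocytes and the only neutrophil marker measured, fell by 0.97 ± 0.28 (adjusted p = 0.0316). Of 2 B and plasma cell, 4 bile duct and 1 red cell marker measured, none passed.

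The remaining genes with large increases were of mixed function. TRANK1 read -1.18, -1.04, -1.07 and -1.21 on day 14 and 0.41, 0.64, 0.84 and 0.37 on day 28, a rise of 1.69 ± 0.23 (adjusted p = 5.03e-06), and another of its elements rose as well. RASSF6, a scaffold of the Ras association family, read -0.68, -0.05, -0.57 and -0.27 and then 1.31, 1.14, 1.26 and 1.03, a rise of 1.58 ± 0.27 (adjusted p = 0.000234). INPP5B, an inositol polyphosphate phosphatase, rose by 1.65 ± 0.37, and LOC616364, named by number only, by 2.00 ± 0.32 (adjusted p = 0.0043 and 8.86e-05). In each of these 4 genes all 4 cows rose and the days were separate.

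ADI1, a dioxygenase of the methionine salvage pathway, rose by 1.54 ± 0.39 (adjusted p = 0.0125), from 0.38, -0.42, 0.59 and -0.09 to 1.00, 1.39, 1.33 and 2.92, with cow 7187 far above the others on day 28. CLEC3B (tetranectin), a plasminogen-binding plasma protein, rose by 1.42 ± 0.43 (adjusted p = 0.0432), and the methyltransferase-like gene TMT1B by 1.39 ± 0.30 (adjusted p = 0.00287). The call of CLEC3B was lost whichever ad libitum cow was left out. TMT1B did not pass when divided by slope (0.63) or after quantile normalization (0.53). FILIP1L had the largest fitted rise, 2.53 ± 0.57 (adjusted p = 0.00541), but only 3 values on each day. These were -0.30, -1.89 and -1.13 on day 14 in cows 6886, 7050 and 7187, and 2.00, 1.38 and 0.86 on day 28 in cows 6886, 7050 and 7161, so that only 2 cows had both days. Its other element changed by 0.06 (adjusted p = 0.911).

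Of the 64 named elements that passed, those of H2B, H2AJ, LOC619094, EMP1 and TRANK1 passed in the same direction in every one of 17 alternatives that were run. SLC10A1, H1-2, H1-3, ITPK1, the MSL1 element that fell and the first CD14 element did so in 16 of 17. SELENOP did so in 6 and RBP4 in 7. The calls of AGPAT1, ALDOC, CLEC3B, RPL28, SELENOP, SF3B4, USP9X and the first ALDOA element were lost whichever ad libitum cow was left out. Without cow 6886, 7050, 7161 or 7187, 35, 34, 41 and 50 of the 64 passed in the same direction, and 48 did so when divided by slope. With liver in Cy3 alone 54 of the 64 did so, but with liver in Cy5 alone only 23. The 11 elements called by the paired fit included H2B, H2AJ, LOC619094, EMP1, TRANK1, MSL1 and TNC, and 4 elements without a symbol, with changes of -2.85, -2.73, -2.26 and 1.90.

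**Figure D3:**
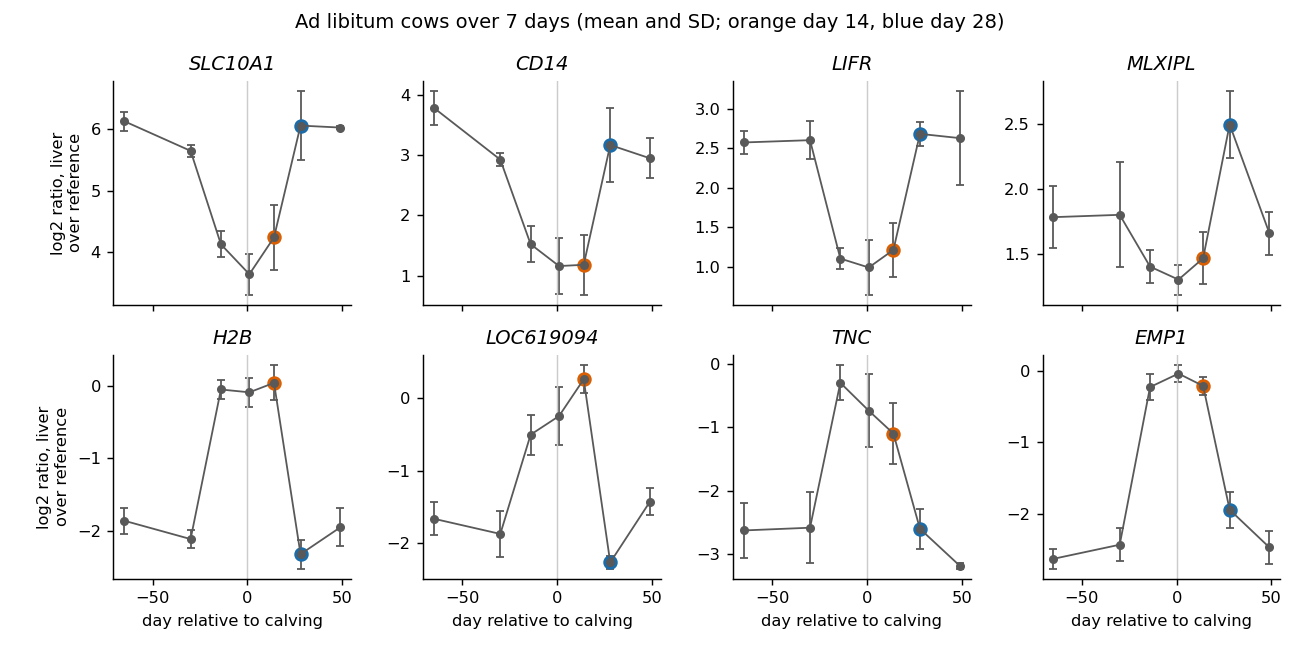
Mean log2 ratio of liver over reference (vertical axis) on 7 days relative to calving (horizontal axis) in ad libitum cows for 4 genes that rose (top) and 4 that fell (bottom) between day 14 (orange) and day 28 (blue). Error bars are SD over 4 cows, with 3 cows on day -65 and 2 on day 49; SLC10A1, CD14 and LIFR stand low and H2B, LOC619094, TNC and EMP1 stand high on days -14, 1 and 14.

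The other days of the same cows place these changes in the whole course. SLC10A1 averaged 5.65 ± 0.10 at day -30 (SD over 4 cows, here and in the next values), 4.13 ± 0.21 on day -14, 3.64 ± 0.33 on day 1, 4.24 ± 0.52 on day 14 and 6.06 ± 0.56 on day 28. H2B averaged -2.12 ± 0.12, -0.05 ± 0.14, -0.09 ± 0.20, 0.04 ± 0.24 and -2.33 ± 0.20 on the same days. In both genes day 28 lay near day -30, and the step on day 14 was shared with days -14 and 1. MLXIPL had another course: its day 28 mean of 2.49 ± 0.26 stood above that of day -30, 1.80 ± 0.40, and that of day 14, 1.47 ± 0.20.

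On the other 5 days, which share no array with this comparison, 206 of 217 risers (94.9%) had a higher mean on days -65, -30 and 49 (9 cow-days) than on days -14 and 1 (8 cow-days), against 45.5% of all elements. Of the fallers, 220 of 221 (99.5%) had a lower mean there, against 54.5% of all elements. The medians of these differences were 0.54 for risers and -0.64 for fallers. Nearly all calls thus had, between other days of the same cows, the direction they had between day 14 and day 28. This split of days was not among the planned tests, and it follows the grouping of days by the dye offset described above. The mean dye offset correlated at 0.953 between days -14 and 1, at 0.933 between days -30 and 49, and at 0.719 between days -14 and 49. A direction shared by days and one shared by array sets therefore cannot be told apart here. The part of the array sets in these values was not tested.

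The direction of change also went with an element's level. Elements were placed in classes by their mean ratio in restricted cows on days -65 and -30, which are outside this comparison. Of 154 elements at or below -2, 36 fell (23.4%) and 0 rose, and the median change was -0.44. Among 177 elements above 2, 35 rose (19.8%), 1 fell, and the median was 0.45. In between, 63 of 674 elements from -2 to -1 fell and 3 rose, 97 of 3008 from -1 to 0 fell and 37 rose, 112 of 3593 from 0 to 1 rose and 21 fell, and 30 of 455 from 1 to 2 rose and 3 fell. By these classes, risers lay mostly among transcripts with more signal in liver than in the reference and fallers mostly among those with less. The mean dye offset of days -65 and -30 correlated at 0.892 and 0.937 with that of day 28. With that of day 14 the values were 0.828 and 0.815. Classes set on days that resemble day 28 place fallers low and risers high in part by construction. The part of this choice of days in the pattern was not tested.

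The slope of each cow-day's profile was 0.911 ± 0.081 (SD over 4 cows) at day 14 and 1.05 ± 0.0509 (SD over 4 cows) at day 28, higher in 3 of 4 cows (two-sided exact sign-flip test, p = 0.25). When each cow-day was divided by its slope, 393 elements passed, 216 higher and 177 lower, and 318 of them were among the 438. The class at or below -2 then held 19 fallers and 6 risers with a median change of -0.073, and the class above 2 held 15 risers and 6 fallers with a median of -0.019. After that scaling both outer class medians lay close to 0. The slope was fitted on elements whose mean profile lay at least 1 from 0, such as those of the outer classes. Medians near 0 there thus follow from the scaling itself.

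**Figure D4:**
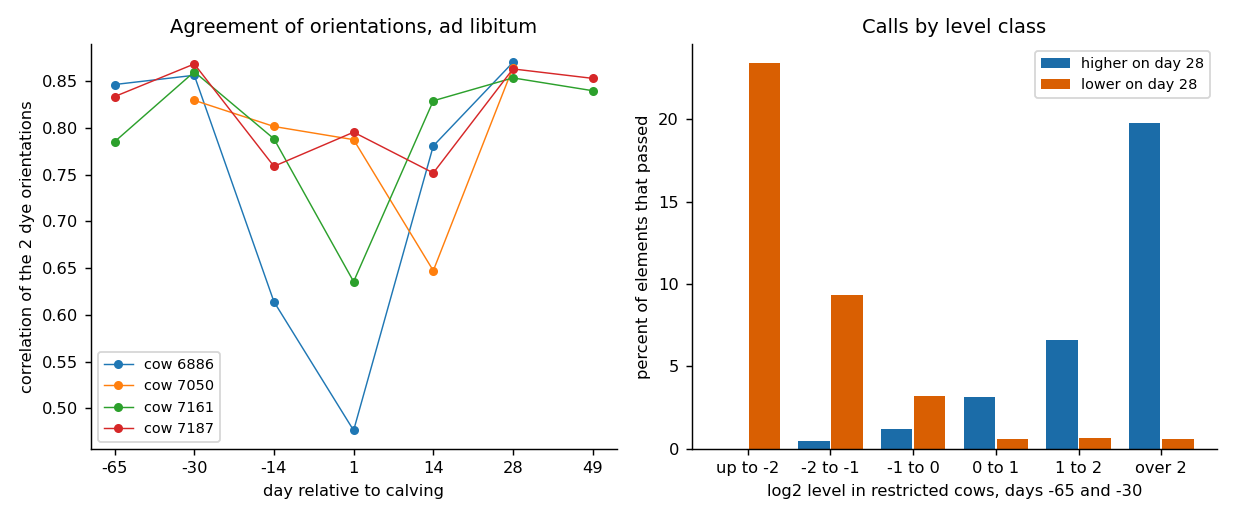
Left, correlation over elements of both dye orientations of each ad libitum liver sample (vertical axis, mean dye offset removed) by day relative to calving, 1 line per cow; on day 28 the 4 cows lie between 0.854 and 0.87, on day 14 between 0.647 and 0.829. Right, percent of elements that passed (vertical axis), higher (blue) or lower (orange) on day 28, in classes of the log2 level in restricted cows on days -65 and -30; fallers reach 23.4% in the lowest class and risers 19.8% in the highest.

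The restricted cows showed the same direction for most of these elements over the same interval. Between day 14 and day 28, 157 of 8061 elements (1.95%) passed in restricted cows, 80 higher and 77 lower. That count was 0 in the paired fit and with liver in Cy5 alone, 35, 13 and 10 without cow 6877, 7045 or 7105, and 1332 without cow 6952, so the overlap of calls given below rests on the fit of all cows. Of the 217 ad libitum risers, 180 (82.9%) had a change above 0 in restricted cows, against 46.2% of all elements. Of the 221 fallers, 190 (86.0%) had a change below 0, against 53.8% of all. The median restricted change was 0.30 for the risers and -0.40 for the fallers, which had been chosen by their ad libitum change. In both diets 65 elements passed, 17 higher and 48 lower, and 0 in opposite directions. These are 14.8% of the ad libitum and 41.4% of the restricted calls.

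Side by side, H2B changed by -2.37 in ad libitum and -1.21 in restricted cows, SLC10A1 by 1.81 and 1.15, and TNC by -1.50 and -1.52. PKM changed by -1.08 and 0.01. The test of the difference between diets passed for 1 of 8061 elements (0.0124%), while 1326 had an unadjusted p under 0.05. That element was LOC619094. Its fall was larger in ad libitum cows by 2.12 ± 0.41 (adjusted p = 0.042), with a restricted change of -0.41. This call was lost on leaving out any 1 of the 8 cows except 6877 and 6952, without which 112 and 788 elements passed.

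H2AJ (-1.61 against -0.20), AGPAT1 (-0.67 against 0.47), ADI1 (1.54 against -0.56) and DES (0.56 against -0.26) were among those with the smallest p for the difference, with adjusted p between 0.114 and 0.148. An effect past the threshold in one diet and not in the other was therefore shown to differ for LOC619094 alone.

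**Figure D5:**
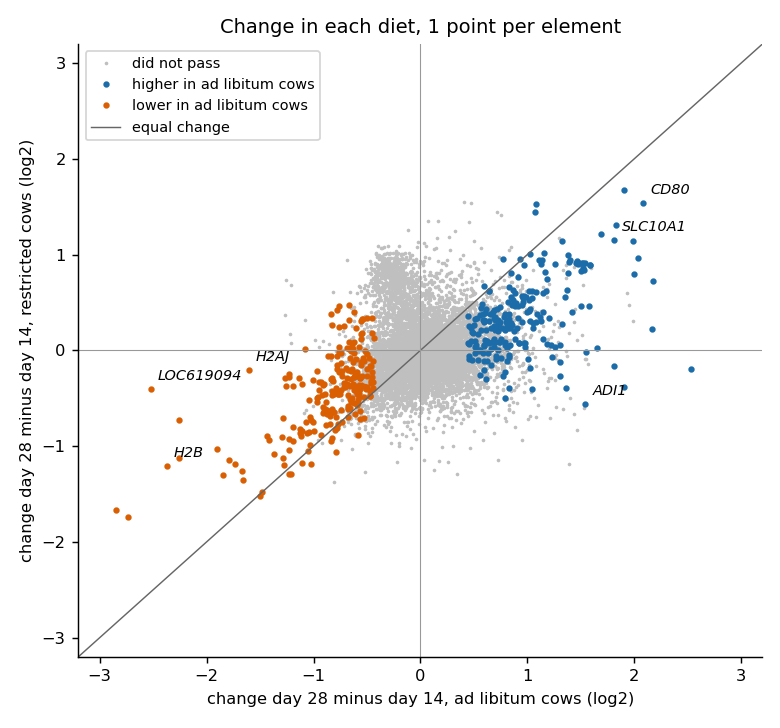
Change from day 14 to day 28 (log2) in ad libitum cows (horizontal axis) and in restricted cows (vertical axis), 1 point per element; blue and orange points passed in ad libitum cows and the diagonal marks equal change. Most coloured points lie on the same side of 0 in both diets (180 of 217 risers and 190 of 221 fallers), and LOC619094, H2AJ and ADI1 lie far from the diagonal.

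Genes with several elements gave a check within the array. Of 933 such genes, 519 (55.6%) had the same sign in all elements. Of the 114 with at least 1 element that passed, 80 (70.2%) had the same sign in all. In 15 genes at least 2 elements passed in the same direction, among them CD14 and TRANK1 upward and ALDOA, CD44, KRT18, LAMA5, MSN, TAGLN, TNC and ZYX downward. ENAH, a regulator of actin assembly, passed in both directions, at 0.71 and -0.81 in different elements, and its remaining element changed by -0.47.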

How the data were processed

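Liver RNA of each cow and day was hybridised on 2 arrays of opposite dye orientation. The authors deposited log2 ratios of Cy5 over Cy3 per spot (16416 spots, 106 arrays); per the labels, slides were read on a Scanarray 4000 and processed with GenePix 4.0. How background was corrected, spots filtered and ratios normalized is not given in the sources used here, and array medians ran from -1.69 to 1.80. Ratios were turned to liver over reference by the dye in the titles, centred on the array median, and averaged over 2 spots and both orientations where both had a value. Spots without a value made up 1.23%. The number of cows limits the precision. Signal over background was not used here.

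The fit (limma 3.58.1, R 4.3.3) held 14 diet-by-day means over 53 cow-days, with cow as a random block (within-cow correlation 0.0176), because the labels name the same animal on each day. Elements needed values in at least 2 cows of every group. Two-sided p-values were adjusted by Benjamini-Hochberg over 8061 elements, and SE is that of the fitted change. The fit was tested on simulated data. Symbols came from the platform annotation (5598 elements with 1 symbol, 95 with several, 2515 with none). Named were the 15 largest changes each way, up to 4 members per list that passed, and genes followed whatever their result; genes named outside this rule were chosen after their values were seen. Lists needed at least 5 measured genes, each represented by the element with the most values and then the highest mean. The lists, rules and genes were chosen with earlier results of these data known. Alternatives varied centring, scaling, dye, block, filter, weights and cows. The slope of a cow-day is that of its profile on the mean profile of all cow-days, over elements at least 1 from 0 in that mean profile. No sequence is printed because no sequence table was used here.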

Additional observations from a re-analysis of the deposited data

Results flagged for a closer look

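In groups of 4 cows, 1 value stood apart from the other 3 by Dixon's 95% criterion in 7 of 141 groups checked, and chance gives about 1 in 20. On day 14 these were EMP1 at -0.022 in cow 7187 (nearest other value -0.27), ALDOA at 0.98 in cow 7161 (nearest -0.26) and RPL8 at -0.011 in cow 7161 (nearest -0.64). On day 28 they were MSL1 at -2.10 in cow 7161 (nearest -1.64), ACADS at 4.38 in cow 7050 (nearest 3.61), PKM at -2.07 in cow 7161 (nearest -2.36) and the second CD14 element at 2.57 in cow 7187 (nearest 3.19). Cow 7161 held 4 of the 7.

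The change of LOC619094 differed between the diets by -2.12, ad libitum minus restricted, in the limma test of the difference (adjusted p = 0.042).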

How the results depend on the processing

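The count of 438 elements kept its side within 1.5 times with 404 for no replicate block, 393 for slopes, 634 for quantile normalization and 433 to 438 for the filters and a robust fit. It moved to 1566 without centring, 1093 with scale normalization, 880 and 175 with liver in Cy3 or Cy5 alone, 1232 with array weights, 967 without cow-days whose orientations correlated under 0.6 (which leaves cow 7161 alone on day 14) and 11 in the paired fit with cow as a fixed replicate block. Leaving out cow 6886, 7050, 7161 or 7187 gave 180, 182, 214 and 234. In restricted cows the 157 moved to 25 without centring, 485 with scale, 94 with slopes, 452 with quantiles, 1728 and 0 for Cy3 and Cy5 alone, 1929 with weights, 0 in the paired fit (limma; 1717 elements had an unadjusted p under 0.05 in the main fit), 0 without low-agreement cow-days, and 10 to 1332 on leaving out a cow (1332 without cow 6952). For the diet difference the 1 element became 0 without centring, with scale, in Cy5 alone and with no block, 5 with quantiles, 7 in Cy3 alone, 1330 with weights, 10 without low-agreement cow-days, and 0 to 788 on leaving out a cow. The cause of these moves was not tested. Of 64 named elements that passed, 7 passed in the paired fit. Signs turned for RBP4 (-0.11 with slopes, -0.014 with quantiles), UBE2T (-0.12) and DES (-0.028, both without centring). With the mean dye offset left in, a setting added after seeing the data, orientations agreed better on day 28 by 0.224. Leaving out a cow gave 0.0751 to 0.139. With 4 cows per day, small changes are within the error of these values.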

Other observations

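Some genes that no list held are given here, chosen after their values were seen. FLNA, an actin cross-linker, changed by -1.11 ± 0.20 (adjusted p = 0.000513). MSN (moesin), which ties actin to the membrane, changed by -0.78 and -0.83 in its 2 elements, and ZYX (zyxin), a protein of focal adhesions, by -0.66 and -0.79. CD44, the hyaluronan receptor, changed by -0.97 and -1.26. All of these passed and were lower in 4 of 4 cows. ENAH, a regulator of actin assembly, passed in both directions, and MYLK, a myosin kinase, changed by 0.89 in an element that passed and by -0.28 in another. KRT8, a keratin of simple epithelia, changed by -0.84 ± 0.23 (adjusted p = 0.022) and its partner KRT18 by -0.95 and -0.95 in 2 elements that passed, while its other element changed by -0.03.

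Among risers outside the lists were PNPLA2, the adipose triglyceride lipase, and ABHD5, its coactivator. PNPLA2 changed by 1.37 ± 0.26 (adjusted p = 0.000734) and, in an element that did not pass, by 0.85. ABHD5 changed by 0.74 ± 0.20 (adjusted p = 0.0211), and all 3 elements were higher in 4 of 4 cows. HSD11B1, which regenerates active glucocorticoid, changed by 0.96 ± 0.17 (adjusted p = 0.000334), and FAAH, a fatty acid amide hydrolase, by 0.97 ± 0.22 (adjusted p = 0.00524). AOX1 (aldehyde oxidase) changed by 1.17 ± 0.34 (adjusted p = 0.0304). The lysosomal genes PLBD2 and ACP2 changed by 1.22 and 0.59 (adjusted p = 0.0257 and 0.036).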
